A study of Mus musculus with 12 samples.

Results

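The 8 genes described here are Irf1, Irf2, Irf3, Irf4, Irf5, Irf7, Irf8 and Irf9, which encode interferon regulatory factors (IRFs). They were matched by mouse gene symbol to the Ensembl identifiers of the deposited table, which holds 54532 genes, and all 8 were found. Levels are given as FPKM (fragments per kilobase of gene, here scaled to a per-library denominator). The gene length is that of all annotated exons merged, from 2905 (Irf5) to 7396 (Irf2) bases here. For Irf7 it is 1 block that spans the whole gene. It is not a transcript length, so levels of different genes are only roughly comparable. The 12 libraries form 4 groups of 3. Untreated macrophages were wild-type bone-marrow-derived macrophages grown in 2% CMG, a source of M-CSF, without RANKL. LPS-treated macrophages received in addition lipopolysaccharide (LPS, from the outer membrane of Gram-negative bacteria) at 100 ng/mL for 3 h on day 5. Untreated osteoclasts came from the same kind of marrow cells in CMG with RANKL, the cytokine that drives osteoclast formation, given as 100 ng/mL in the sample source and as 50 to 100 ng/mL in the protocol. LPS-treated osteoclasts received RANKL and the same LPS dose and time. The labels used here give no mouse strain or age, and they do not say whether the libraries of a group came from separate mice or cultures, so p-values measure only the spread between these libraries, which may be technical.

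IRFs are transcription factors that share an amino-terminal DNA-binding domain and recognise GAAA repeats, such as the interferon-stimulated response element (ISRE). In myeloid cells, LPS acts through TLR4, whose adapters TRIF and MyD88 lead to the activation of IRF3 and IRF5, the first of which drives interferon-beta transcription. Secreted interferon then signals through JAK kinases and STAT factors, and IRF9 is the subunit of the complex ISGF3 that recognises ISREs. IRF8 is a myeloid lineage factor known to restrain osteoclast formation.

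The cell type labels were checked against markers. All 10 osteoclast markers reached a mean of 1 FPKM in both osteoclast groups, where their summed level lay between 29220 and 32220 FPKM per library, against 16.3 to 29.0 FPKM in macrophage libraries. Of the 8 macrophage markers, 7 were called lower in untreated osteoclasts than in untreated macrophages and 1 (Cd68) higher, with a median log2 difference of -3.26. Csf1r was at 70.4% and Cd68 at 209% of their untreated macrophage level, Cd14, Mertk and Adgre1 were at 14.9%, 9.22% and 7.74%, and Mrc1, Cx3cr1 and Fcgr1 were each below 1% (0.877%, 0.342% and 0.952%). The libraries held 15651736 to 20281414 reads recovered from the FPKM values. Mitochondrial genes took 1.27% to 1.62% of reads in macrophage libraries and 5.16% to 6.18% in osteoclast libraries. A difference in these bulk samples cannot tell fewer cells of a type from less RNA per cell.

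The promoters of Irf1, Irf2 and Irf8 are shown because LPS raised all 3 genes in macrophages, and Irf2 and Irf8 without a called rise in osteoclasts. They are also the members whose RefSeq promoter window held a searched motif. Each line gives the 250 bases before the RefSeq start site on GRCm38.p6, plus strand, at chr11:53769764-53770013 (Irf1), chr8:46739495-46739744 (Irf2) and chr8:120736108-120736357 (Irf8). Capitals mark motif matches.
Irf1: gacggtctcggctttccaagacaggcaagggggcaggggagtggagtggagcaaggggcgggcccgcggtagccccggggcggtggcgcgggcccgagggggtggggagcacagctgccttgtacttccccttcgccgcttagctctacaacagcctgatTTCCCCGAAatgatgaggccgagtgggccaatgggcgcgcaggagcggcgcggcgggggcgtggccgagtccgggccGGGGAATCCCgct
Irf2: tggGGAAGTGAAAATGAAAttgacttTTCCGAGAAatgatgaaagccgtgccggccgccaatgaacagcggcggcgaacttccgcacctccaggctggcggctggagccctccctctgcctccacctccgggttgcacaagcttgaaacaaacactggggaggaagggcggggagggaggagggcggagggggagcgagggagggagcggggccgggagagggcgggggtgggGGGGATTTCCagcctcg
Irf8: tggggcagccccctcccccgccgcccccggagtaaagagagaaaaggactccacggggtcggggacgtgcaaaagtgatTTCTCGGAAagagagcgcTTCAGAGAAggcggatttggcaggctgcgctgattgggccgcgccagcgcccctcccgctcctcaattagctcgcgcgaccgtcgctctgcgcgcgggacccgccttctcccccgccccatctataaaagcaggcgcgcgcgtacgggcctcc
The motifs were searched on both strands in windows of 300 bases, from 250 before to 50 after a start site. The gamma-interferon activation site (GAS, TTCNNNGAA), to which STAT dimers bind, was in 8.30% of all 32851 windows. The ISRE motif (GAAANNGAAA) was in 3.44%, the PU.1-IRF composite element (GGAANNGAAA) in 2.72% and the NF-kB consensus in 4.51%. Irf1 held a GAS (TTCCCCGAA, 90 to 82 bases before the start) and an NF-kB consensus match (GGGGAATCCC, 13 to 4 bases before), which matched on both strands. Irf2 held a composite element (GGAAGTGAAA) that overlapped an ISRE (GAAAATGAAA) (247 to 232 bases before the start over both), 1 GAS (TTCCGAGAA, 224 to 216 before) and 1 NF-kB consensus match (GGGGATTTCC, 17 to 8 before). Irf8 held 2 GAS matches, TTCTCGGAA (171 to 163 before) and TTCAGAGAA (153 to 145 before). These letters were not found in the windows of Irf3, Irf4, Irf5, Irf7 and Irf9, nor in the second window of Irf1 or Irf8. A match describes letters and shows no binding.

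Irf1 and Irf2 encode an activator and a factor known to repress many of the same sites. Irf1 (ENSMUSG00000018899, chromosome 11, 53770014 to 53778374 on GRCm38, the build of all positions given here) was at 7.63, 6.78 and 7.12 FPKM in untreated macrophages and at 369, 376 and 379 FPKM with LPS. Osteoclasts held 2.96, 2.35 and 2.49 FPKM without LPS and 22.4, 16.2 and 23.1 FPKM with it. No libraries of different groups overlapped, and LPS-treated osteoclasts lay above untreated macrophages and far below LPS-treated ones. LPS raised the mean 52.2-fold in macrophages and 7.91-fold in osteoclasts. By limma on log2(FPKM + 1), the LPS effect was 5.52 (SE 0.11, adjusted p 9.29e-13) in macrophages and 2.57 (SE 0.11, adjusted p 1.61e-08) in osteoclasts. The difference between these effects, the interaction, was -2.95 (SE 0.16, adjusted p 1.46e-08). Irf1 was also lower in osteoclasts before LPS, by 2.76-fold (log2 difference -1.19, SE 0.11, adjusted p 7.37e-07), and 18.2-fold lower with it. Of its 3976 exon bases, 135 are shared with Gm17334 on the opposite strand. Whether the counting used strand is not given in the sources used here.

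Irf2 (ENSMUSG00000031627, chromosome 8, 46739732 to 46847458) rose with LPS in macrophages, from 3.80, 3.43 and 3.86 FPKM to 16.8, 14.7 and 16.6 FPKM. The osteoclast libraries were at 3.16, 3.00 and 3.18 FPKM without LPS and at 3.03, 3.25 and 3.22 FPKM with LPS, so that these 2 groups overlapped. The log2 difference was 1.86 (SE 0.06, adjusted p 4.65e-11) in macrophages, a 4.34-fold rise of the mean. The osteoclast difference was 0.02, with a 95% interval from -0.11 to 0.15 (adjusted p 0.873). The interaction was -1.84 (SE 0.08, adjusted p 4.04e-09). Untreated osteoclasts were slightly lower than untreated macrophages, by 0.19 on the log2 scale (SE 0.06, adjusted p 0.0110), a call lost after quantile normalization (-0.07, adjusted p 0.306) and larger after rescaling to TPM (-0.61, adjusted p 1.07e-05). The within-library ratio of Irf1 to Irf2 was higher with LPS in every library of both cell types. It was 2.01, 1.98 and 1.84 in untreated and 22.0, 25.5 and 22.8 in LPS-treated macrophages. The osteoclast ratios were 0.934, 0.784 and 0.781 without LPS and 7.40, 4.96 and 7.18 with LPS. By FPKM, Irf2 was thus above Irf1 in untreated osteoclasts alone among the 4 groups. This order depends on the merged exon lengths, 3976 bases for Irf1 and 7396 for Irf2. In untreated macrophages the reads were nearly equal, at 1967 for Irf1 and 1884 for Irf2, so the more abundant transcript there is not shown.

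**Figure D1:**
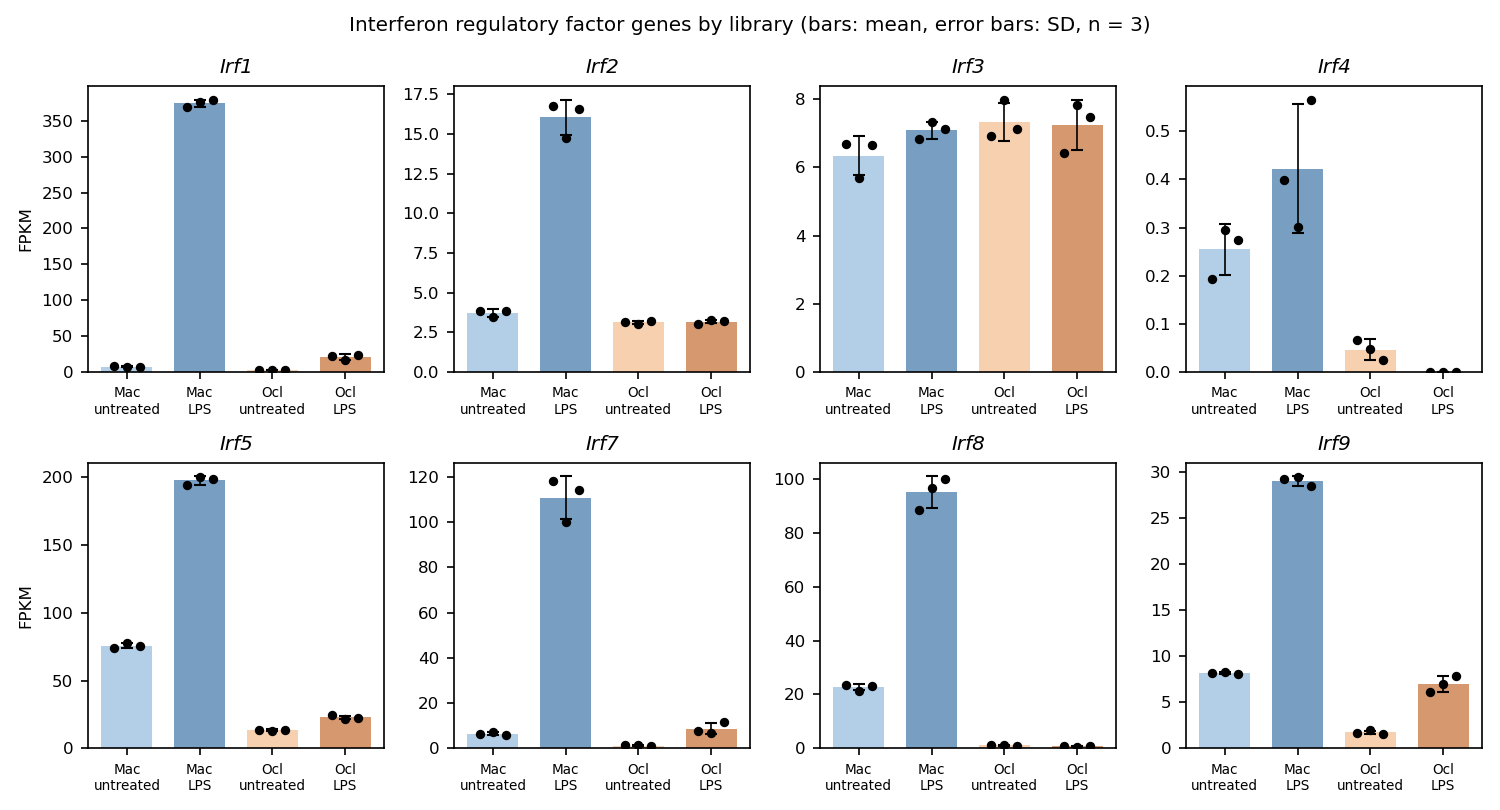
FPKM of the 8 genes in each library of the 4 groups (Mac, macrophages; Ocl, osteoclasts), with the group mean as a bar and the SD as an error bar, n = 3; each panel has its own linear axis from 0. Irf3 lies between 5.70 and 7.98 FPKM in all 12 libraries, while LPS-treated macrophages hold the highest libraries of the other 7 genes.

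Irf3, Irf5 and Irf7 encode factors activated by phosphorylation downstream of pattern receptors. Irf3 (ENSMUSG00000003184, chromosome 7, 44997648 to 45002848), which is known to be present before stimulation, was nearly level. It was at 6.69, 5.70 and 6.65 FPKM in untreated and 6.83, 7.32 and 7.13 FPKM in LPS-treated macrophages. Osteoclasts held 6.91, 7.98 and 7.11 FPKM without LPS and 6.41, 7.84 and 7.48 FPKM with LPS. LPS-treated osteoclasts overlapped each of the other groups, and untreated macrophages, with the lowest mean, overlapped no group but that one. The LPS effect was 0.14 (95% interval -0.03 to 0.31, adjusted p 0.126) in macrophages and -0.02 (-0.19 to 0.15, adjusted p 0.906) in osteoclasts. After rescaling to TPM, where the median LPS effect over all genes in macrophages was -0.53, that of Irf3 was -0.46 (adjusted p 0.00105). Without LPS, Irf3 was higher in osteoclasts by 0.18 (adjusted p 0.0503), just outside the threshold. It was called without untreated macrophage replicate 1 (0.22, adjusted p 0.0456), untreated osteoclast replicate 1 (0.22, adjusted p 0.0428), or LPS-treated osteoclast replicate 1 or 2 (0.18, adjusted p 0.0278 and 0.0427). It was also called by voom (0.21, adjusted p 0.038), after quantile normalization (0.21, adjusted p 0.037) and among genes averaging 5 FPKM or more (adjusted p 0.0446). It was smaller without untreated macrophage replicate 2 (0.12, adjusted p 0.209) and of opposite sign after rescaling to TPM (-0.20, adjusted p 0.0871). Irf3 shares 88 of its 3442 exon bases with Bcl2l12 on the opposite strand.

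Irf5 (ENSMUSG00000029771, chromosome 6, 29526625 to 29541871), whose protein is known for driving inflammatory cytokine genes, had the highest level of the family in untreated cells. It was at 73.9, 77.8 and 75.7 FPKM in untreated and 194, 199.9 and 199 FPKM in LPS-treated macrophages. Its osteoclast levels were 13.6, 12.5 and 13.7 FPKM without LPS and 24.4, 21.9 and 22.1 FPKM with LPS. No groups overlapped, and both osteoclast groups lay below untreated macrophages. The mean rose 2.61-fold in macrophages (log2 difference 1.37, SE 0.05, adjusted p 9.65e-11) and 1.72-fold in osteoclasts (0.74, SE 0.05, adjusted p 4.15e-07). As TPM the effects were 0.73 in macrophages and 0.70 in osteoclasts, and quantile-normalized values gave 0.55 and 0.67. The interaction of -0.63 (SE 0.07, adjusted p 6.11e-06) depended on the scaling, being -0.04 (adjusted p 0.622) after rescaling to TPM and 0.12 (adjusted p 0.113) after quantile normalization. The lower level in osteoclasts was 5.72-fold without LPS (log2 difference -2.43, SE 0.05, adjusted p 5.55e-13) and 8.67-fold with it. Irf5 shares 411 of its 2905 exon bases with Tnpo3 on the opposite strand.

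Irf7 (ENSMUSG00000025498, chromosome 7, 141262706 to 141266481) is itself an interferon-inducible gene whose product amplifies interferon production. It was at 6.11, 7.16 and 5.89 FPKM in untreated and 118, 99.9 and 114 FPKM in LPS-treated macrophages. Among osteoclasts, Irf7 was at 1.31, 1.29 and 0.904 FPKM without LPS and at 7.76, 6.77 and 11.5 FPKM with LPS. LPS-treated osteoclasts overlapped untreated macrophages and no other group. The mean rose 17.3-fold in macrophages (log2 difference 3.92, SE 0.15, adjusted p 2.82e-10) and 7.45-fold in osteoclasts (2.14, SE 0.15, adjusted p 1.11e-06). The interaction was -1.78 (SE 0.21, adjusted p 1.86e-05). Because untreated osteoclasts were near the added 1 FPKM, the recovered reads were also tested with limma's voom, where the interaction was smaller, -1.24 (SE 0.30, adjusted p 0.00199). After rescaling to TPM it was -0.93 (adjusted p 0.0049). The ratio of Irf7 to Irf3, the 2 factors best known from antiviral responses, was 0.913, 1.26 and 0.885 in untreated and 17.3, 13.6 and 16.0 in LPS-treated macrophages. It was 0.189, 0.161 and 0.127 in untreated and 1.21, 0.863 and 1.54 in LPS-treated osteoclasts, so that LPS-treated osteoclasts overlapped untreated macrophages. Irf7 shares 45 of its 3776 exon bases with Phrf1 on the opposite strand.

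**Figure D2:**
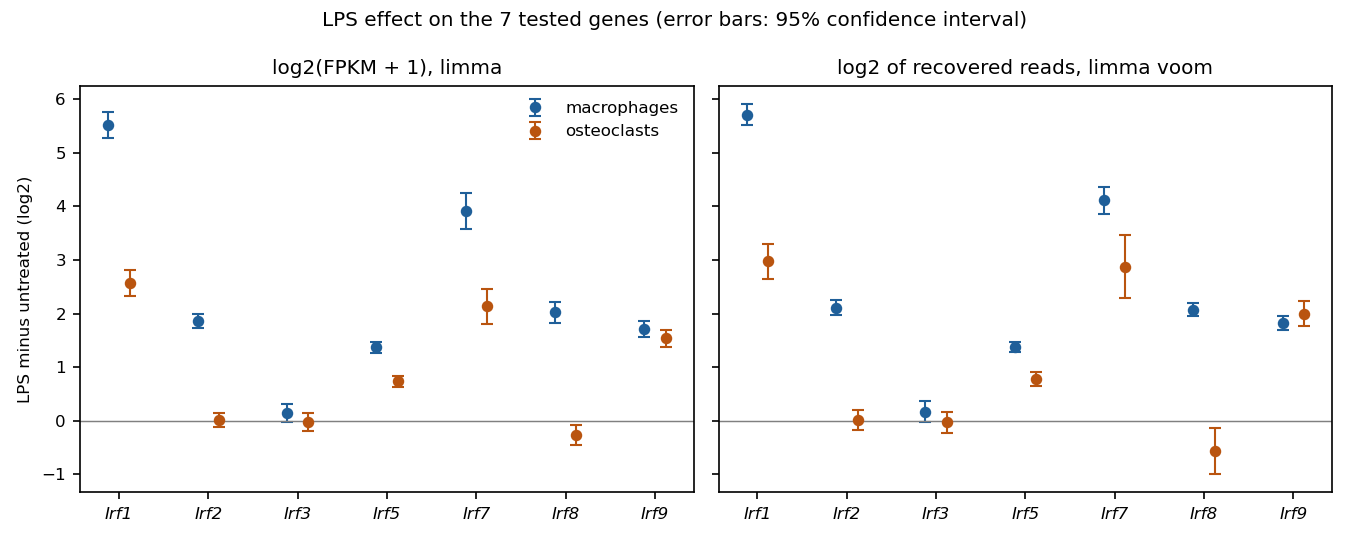
LPS effect (LPS minus untreated, log2) of the 7 tested genes in macrophages and osteoclasts, with 95% confidence intervals, on log2(FPKM + 1) (left) and on recovered reads (right). Irf1 shows the largest effect of the 7 in both cell types on both scales, in osteoclasts the Irf2 interval includes 0 and the Irf8 interval lies below 0, and the Irf9 intervals of the 2 cell types overlap.

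Irf4 and Irf8 encode closely related factors of blood cells that bind DNA with partners such as PU.1. Irf8 (ENSMUSG00000041515, chromosome 8, 120736358 to 120756694) showed the widest cell type difference of the tested members. It was at 23.4, 21.4 and 23.1 FPKM in untreated and 88.5, 96.8 and 100.1 FPKM in LPS-treated macrophages. Osteoclasts held 1.16, 1.08 and 1.01 FPKM without LPS and 0.752, 0.506 and 0.979 FPKM with LPS. No groups overlapped, and the lowest untreated osteoclast library lay just above the highest LPS-treated one. The LPS effect in macrophages was 2.02 (SE 0.09, adjusted p 7.05e-10), a 4.20-fold rise. The osteoclast effect was -0.26 (95% interval -0.45 to -0.07, adjusted p 0.0569), not called, from 401 reads in the 3 libraries without LPS and 286 in those with it. That difference was called without LPS-treated osteoclast replicate 3 (-0.36, adjusted p 0.00926), with a pseudocount of 0.1 (-0.52, adjusted p 0.0426), after rescaling to TPM (-0.46, adjusted p 0.0297), after quantile normalization (-0.29, adjusted p 0.0214) and when tested among genes averaging 5 FPKM or more (adjusted p 0.0404). It was not called without LPS-treated osteoclast replicate 2 (-0.16, adjusted p 0.144) or by voom (-0.56, adjusted p 0.0592). The interaction was -2.29 (SE 0.12, adjusted p 1.67e-08). Without LPS, Irf8 was 20.9-fold lower in osteoclasts (log2 difference -3.50, SE 0.09, adjusted p 3.76e-12), and with LPS 128-fold lower (-5.79, SE 0.09, adjusted p 5.47e-14).

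Irf4 (ENSMUSG00000021356, chromosome 13, 30749226 to 30766976) was the scarcest member and was not tested, since no library reached 1 FPKM. Macrophage libraries held 0.194, 0.295 and 0.275 FPKM without LPS and 0.399, 0.301 and 0.566 FPKM with LPS, from 22 to 39 reads each. Untreated osteoclast libraries held 0.0663, 0.0483 and 0.0240 FPKM, from 2 to 6 reads. No read was found in any LPS-treated osteoclast library, which allows a level of up to 3 reads per library, or 0.0347 FPKM, by counting error only. Against this floor, the LPS-treated mean was at least 12.2-fold higher in macrophages. Without the filter on low values, limma called Irf4 lower in osteoclasts both without LPS (-0.26 on log2(FPKM + 1), adjusted p 0.00433) and with it (-0.50, adjusted p 3.33e-05). It also called Irf4 higher with LPS in macrophages (0.18, adjusted p 0.0396), and called neither the LPS effect in osteoclasts (-0.06, adjusted p 0.692) nor the interaction (-0.24, adjusted p 0.0603). The called rise in macrophages rested on scaling, since each group held 86 Irf4 reads in all and the size factors were 1.26 to 1.33 without LPS and 0.724 to 0.846 with it. After rescaling to TPM it was 0.03 (adjusted p 0.856). The ratio of Irf8 to Irf4 was 121, 72.7 and 84.2 in untreated macrophages, 222, 322 and 177 in LPS-treated macrophages and 17.5, 22.4 and 42.0 in untreated osteoclasts. Irf8 exceeded Irf4 in every one of these libraries. For the 3 gene pairs, 10 comparisons between groups were possible, and each had an exact permutation p of 0.1 (two-sided, adjusted p 0.1), the smallest that 3 against 3 libraries allow.

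**Figure D3:**
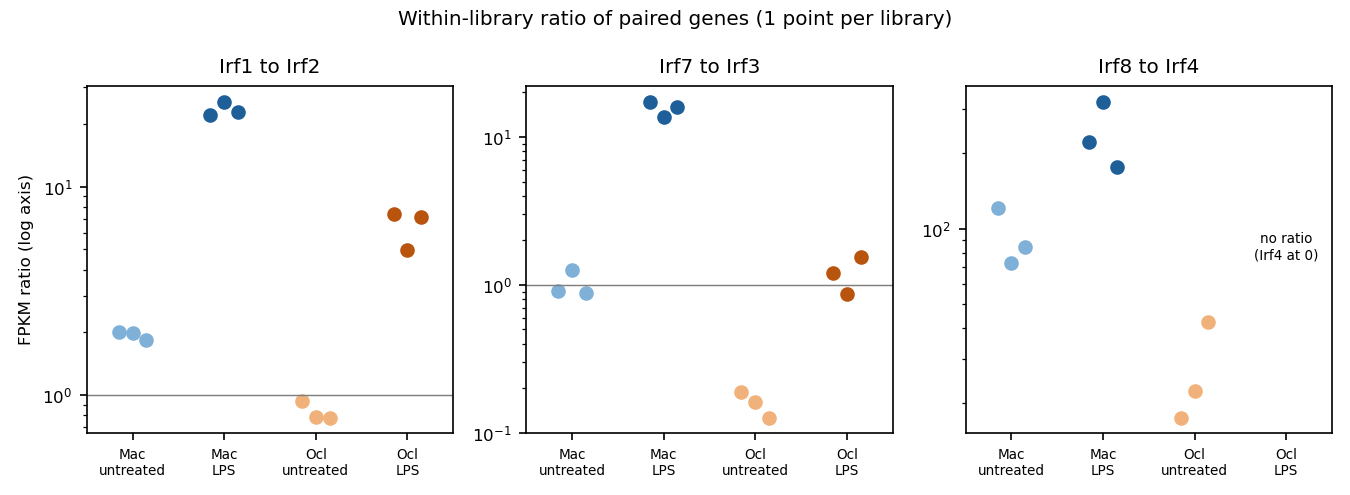
Within-library FPKM ratio (log axis) of Irf1 to Irf2, Irf7 to Irf3 and Irf8 to Irf4, with 1 point per library and a line at 1 where it lies in range. Irf1 to Irf2 is below 1 only in untreated osteoclasts, and no ratio is drawn for Irf8 to Irf4 in LPS-treated osteoclasts, where Irf4 was at 0.

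Irf9 (ENSMUSG00000002325, chromosome 14, 55603571 to 55610030), the DNA-binding subunit of ISGF3, was at 8.18, 8.24 and 8.13 FPKM in untreated and 29.3, 29.4 and 28.5 FPKM in LPS-treated macrophages. Osteoclasts were at 1.68, 1.94 and 1.58 FPKM without LPS and at 6.16, 6.97 and 7.81 FPKM with LPS. No groups overlapped, and LPS-treated osteoclasts approached but did not reach untreated macrophages. The mean rose 3.55-fold in macrophages (log2 difference 1.71, SE 0.07, adjusted p 5.15e-10) and 4.02-fold in osteoclasts (1.54, SE 0.07, adjusted p 2.68e-08). A difference between these effects was not shown, with an interaction of -0.17 on log2(FPKM + 1) (95% interval -0.39 to 0.05, adjusted p 0.172) and 0.17 on the recovered reads (-0.10 to 0.45, adjusted p 0.280). It was called below 0 without LPS-treated osteoclast replicate 3 (-0.24, adjusted p 0.0342) and above 0 after rescaling to TPM (0.59, adjusted p 0.00161). It was also above 0, and not called, with a pseudocount of 0.1 (0.13) and after quantile normalization (0.09). The cell type difference was 4.71-fold without LPS (log2 difference -1.75, SE 0.07, adjusted p 2.77e-10) and 4.16-fold with it (-1.92, SE 0.07, adjusted p 8.48e-11). Irf9 shares 123 of its 5386 exon bases with Rnf31 on the same strand.

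Across the family, LPS raised 6 of the 7 tested genes in macrophages and lowered 0, where limma called 69.9% of the 11335 genes tested, 36.8% as higher and 33.1% as lower. The exception was Irf3. The 2 macrophage groups did not overlap in any of the 7, and in 74% of all genes. In osteoclasts LPS raised 4 of the 7 (Irf1, Irf5, Irf7 and Irf9) and lowered 0, with 17.7% of all genes called, 11.1% as higher and 6.59% as lower. The osteoclast groups did not overlap in 5 of the 7, these 4 and Irf8, and in 34% of all genes. The median log2 difference of the 7 genes was 1.86 in macrophages and 0.74 in osteoclasts, against 0.02 and 0.01 over all genes tested. The interaction was called below 0 for 5 of the 7 (Irf1, Irf2, Irf5, Irf7 and Irf8), where 56.6% of all genes were called, 30% below and 26.6% above 0. Without LPS, osteoclasts were lower than macrophages in 6 of the 7, all but Irf3, and higher in 0, where 77.8% of all genes were called, 39% as lower and 38.8% as higher. The libraries did not overlap in any of the 7, nor in 81.4% of all genes. With LPS, the 6 were again lower and 0 higher, with 83.9% of all genes called, 43% as lower and 40.9% as higher. There the libraries did not overlap in 6 of the 7 and in 83.6% of all genes. Irf3 was not called in either comparison, and the median of the 7 was -1.75 without and -3.06 with LPS. Irf8 in LPS-treated osteoclasts was below 1 FPKM in every library, so it entered the test through the other groups.

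Measured against untreated macrophages, untreated osteoclasts held 4.78% of the Irf8 level, 17.5% of Irf5, 18.2% of Irf7, 21.2% of Irf9, 36.2% of Irf1, 84.3% of Irf2 and 115.5% of Irf3. Of the 8 macrophage markers, 6 were at or below 14.9% by the same measure. Markers of other cells also differed between the cell types. The stromal list (Col1a1, Col1a2, Pdgfra, Runx2) summed to 25.8 to 35.5 FPKM in macrophage libraries, with 3 of 4 genes at a mean of 1 FPKM or more without LPS and 2 with LPS. In osteoclast libraries it summed to 0.624 to 1.42 FPKM, with 0 of 4. The neutrophil list of 6 genes summed to 5.24 to 15.5 FPKM in macrophages, with 3 genes (S100a8, S100a9 and Ngp) at 1 FPKM or more. In osteoclasts it summed to 0.170 to 1.75 FPKM, with 0 genes at that level. Ly6g and Elane were at 0 in both osteoclast groups and in untreated macrophages, and Mpo in both osteoclast groups only. Of the 6 B and plasma cell markers, which mark cells known for Irf4 and Irf8, 0 reached a mean of 1 FPKM in any group. The 5 T cell markers summed to at most 2.97 FPKM, and Cd3g and Cd8a were at 0 in every library. Lck was at 0.00484 FPKM in untreated and 2.19 FPKM in LPS-treated macrophages, and at 0.0258 and 0.0724 FPKM in osteoclasts. The dendritic cell list of 6 summed to 284 to 482 FPKM in macrophages and 34.8 to 57.8 FPKM in osteoclasts, of which Bst2 alone reached 1 FPKM in untreated cells, and Bst2 is also an interferon-inducible gene. With LPS, Xcr1 reached it as well in macrophages (5.31 FPKM, from 0.150) and Zbtb46 in osteoclasts (1.01 FPKM, from 0.546). The part of these cells and of the mitochondrial share in the cell type differences was not tested.

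The make-up of the family, by FPKM over merged exon lengths, differed between groups. The summed level of the 8 genes was 130.5 ± 0.523 FPKM in untreated and 831 ± 12.4 FPKM in LPS-treated macrophages, and 30.3 ± 0.458 and 70.2 ± 6.44 FPKM in untreated and LPS-treated osteoclasts (SD, n = 3). Irf5 made up 58.1% ± 1.28 of the sum in untreated macrophages and 43.7% ± 2.09 in untreated osteoclasts. With LPS, Irf1 took 45.1% ± 0.432 in macrophages, from 5.50% ± 0.348 without LPS. In LPS-treated osteoclasts Irf5 at 32.6% ± 3.14 and Irf1 at 29.1% ± 3.24 overlapped between libraries. Irf3 ranged from 24.2% ± 2.03 of the sum in untreated osteoclasts to 0.854% ± 0.0303 in LPS-treated macrophages, the extremes of the 4 groups. Irf8 ranged from 17.4% ± 0.851 in untreated macrophages to 1.05% ± 0.243 in LPS-treated osteoclasts.

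**Figure D4:**
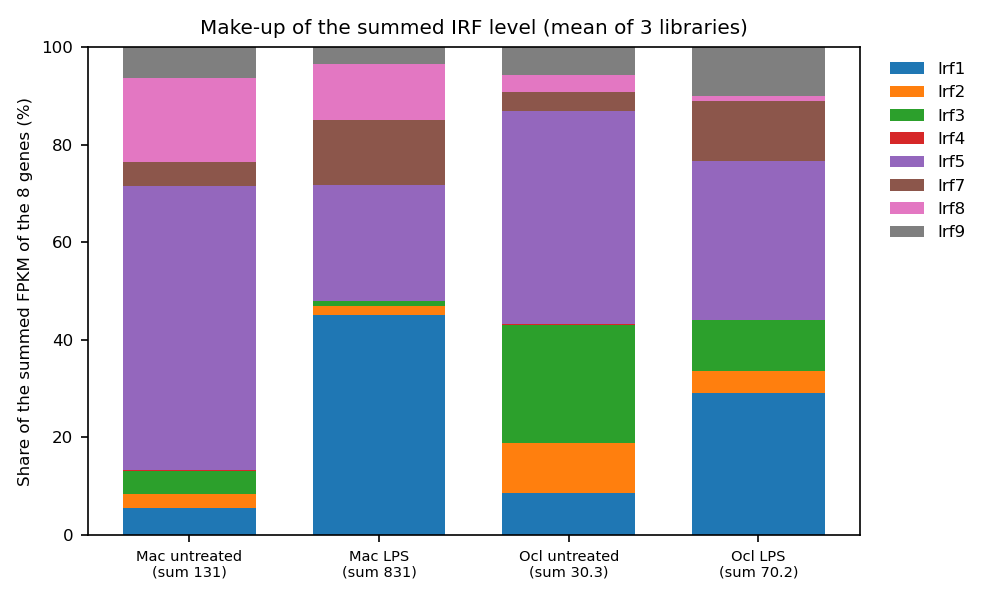
Share of each gene in the summed FPKM of the 8 genes (%, mean of 3 libraries) in the 4 groups, with the mean sum in FPKM under each bar. Irf5 is the largest share in both untreated groups, and Irf1 the largest in LPS-treated macrophages at 45.1%.

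Genes with the most similar pattern over the 12 libraries were searched among 3650 genes, those averaging 5 FPKM or more whose log2 values spanned 1 or more. The libraries form 4 groups, so each r largely describes 4 group levels, and it is given as a description. Irf1 was followed most closely by Irgm1, an interferon-inducible GTPase gene (Pearson r 0.999), by Fgl2 (0.999) and by Ripk2, the kinase of NOD signalling (0.999). For Irf7 these were Ifi47, Slfn8 and Trim21, each with r 0.998. Irf2 was nearest to Tut7, Synj1 and Sptan1 (0.998, 0.998 and 0.997), and Irf5 to Ell2, Skil and Fam129a (0.9998, 0.999 and 0.997). The closest genes to Irf8 were Naip2, Neurl3 and Adam9 (0.999, 0.999 and 0.998). Irf9 was nearest to Csf1, Nlrp3 and Rtp4 (0.993, 0.992 and 0.991). The nearest genes of Irf3 were less alike, with Kdm5c at 0.726, Hipk2 at 0.707 and Flii at 0.692.

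Genes around the IRFs were described from 5 lists. Among 13 adapters and kinases upstream of the IRFs, LPS raised 7 and lowered 3 in macrophages and raised 2 and lowered 0 in osteoclasts, beside 36.8% and 11.1% of all genes called higher and 33.1% and 6.59% called lower. The median log2 difference of the list was 0.37 in macrophages and 0.08 in osteoclasts. Tbk1, a kinase of IRF3, was at 24.1 ± 0.898 FPKM in untreated and 50.2 ± 1.60 FPKM in LPS-treated macrophages and at 23.1 ± 1.35 and 22.4 ± 0.316 FPKM in osteoclasts (SD, n = 3), with an interaction of -1.07 (SE 0.07, adjusted p 5.81e-08). Ikbke, which encodes the related inducible kinase, and Myd88 were the 2 genes raised in both cell types. Ikbke rose by 2.69 and 1.08 on the log2 scale (adjusted p 3.53e-10 and 1.89e-05). Ticam1, which encodes TRIF, was higher in osteoclasts without LPS, at 13.8 against 5.10 FPKM (adjusted p 9.33e-09). Mavs, the adapter of RNA sensors, fell by 0.77 in macrophages (adjusted p 1.85e-07) and was at -0.03 in osteoclasts (adjusted p 0.787).

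Of 10 interferon receptor and JAK-STAT genes, LPS raised 9 and lowered 1 (Ptpn6) in macrophages and raised 5 in osteoclasts, beside 36.8% and 11.1% of all genes called higher. The list medians were 1.05 and 0.13, and 9 of the 10 interactions were called below 0, against 30% of all genes. Stat2, whose product binds IRF9, rose by 2.93 in macrophages (adjusted p 2.71e-10) and by 1.26 in osteoclasts (adjusted p 8.56e-06). Ifnar1 and Ifnar2, which encode the type I interferon receptor, were lower in osteoclasts before LPS, by log2 differences of -1.31 and -1.23 (adjusted p 6.60e-12 and 2.11e-10). Ifnb1, which was chosen after its values were seen, was listed at 0 in all 6 untreated libraries. With LPS it was at 54.0, 72.6 and 54.1 FPKM in macrophages and at 0.539, 0.865 and 0.950 FPKM in osteoclasts, from 8 to 13 reads per osteoclast library.

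Among 11 DNA-binding and chromatin partners, 9 were tested, of which LPS raised 4 and lowered 4 in macrophages, where 36.8% of all genes were called higher and 33.1% lower, and raised 3 and lowered 2 in osteoclasts, where the shares were 11.1% and 6.59%. Batf and Batf2 passed the filter only through LPS-treated libraries, and without them 2 and 1 genes were raised. Spi1, which encodes PU.1, rose by 1.01 in macrophages (adjusted p 4.96e-10) and was at 278 and 299 FPKM in untreated and LPS-treated osteoclasts (adjusted p 0.108). Irf2bp2, which encodes a corepressor that binds IRF2, fell from 37.1 ± 1.81 to 1.50 ± 0.190 FPKM in macrophages and from 31.2 ± 0.843 to 23.1 ± 0.680 FPKM in osteoclasts (SD, n = 3). Its interaction was 3.51 (SE 0.08, adjusted p 2.72e-11), opposite in sign to that of Irf2. Batf2 was at 0.430 and 39.2 FPKM in untreated and LPS-treated macrophages and at 0.350 and 1.84 FPKM in osteoclasts, given without a test for that reason.

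The list of 30 ISRE targets had 29 tested genes. LPS raised all 29 in macrophages and 28 in osteoclasts, the exception being Bst2 (0.37, adjusted p 0.0561), beside 36.8% and 11.1% of all genes called higher. On the recovered reads all 29 were called higher in osteoclasts, beside 12.9% of all genes. Mx2, Usp18, Ifi44, Ifi205 and Nos2 passed the filter on low values only through LPS-treated libraries, which favoured a rise with LPS. Ifi44, at 0.388 FPKM in LPS-treated osteoclasts, passed through macrophages alone. Among the other 24, LPS raised 24 in macrophages and 23 in osteoclasts. Over all 29 genes the medians were 3.82 and 2.12 on log2(FPKM + 1). On the recovered reads, which add no 1 FPKM to low levels, they were 4.31 and 4.01. These medians include the genes that passed only through LPS-treated libraries. The median interaction, also over all 29, was -2.13 on the first scale and -1.25 on the second. The number of interactions called below 0 depended on the scale. On log2(FPKM + 1) it was 28 of 29, all but Bst2, and 23 of the 24, against 30% of all genes. On the recovered reads it was 16 of 29, and 14 of the 24, against 28.6% of all genes. Mx1, an antiviral GTPase gene with an interaction of -3.35 on the first scale, went from 2.03 to 798 FPKM in macrophages and from 0.0498 to 27.02 FPKM in osteoclasts. Its untreated osteoclast level lay far below the added 1 FPKM. The -3.35 therefore does not show a smaller fold rise of Mx1 in osteoclasts. Rsad2, which encodes an antiviral radical-SAM enzyme, went from 2.63 to 2995 FPKM in macrophages and from 0.262 to 110.1 FPKM in osteoclasts. Without LPS, 24 of the 29 were lower in osteoclasts and 0 higher, where 39% of all genes were called lower. Oasl1 was not called there, at 1.15 and 1.11 FPKM (adjusted p 0.886).

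Of 10 negative regulators, which include the ISRE target Usp18, LPS raised 7 and lowered 1 (Bcl6) in macrophages, and raised 6 and lowered 0 in osteoclasts, with medians of 3.34 and 0.73. Over all genes 36.8% and 11.1% were called higher. Socs1 and Usp18 passed the filter only through LPS-treated libraries, and without them 5 and 4 genes were raised. The medians cover all 10 genes and so include both of these, which lay above the median in each cell type. Bcl6, a repressor, was at 19.6 FPKM in untreated and 11.3 FPKM in LPS-treated macrophages and rose by 0.32 in osteoclasts (adjusted p 0.0243). Socs1, which encodes a JAK inhibitor, was at 0.180 and 188 FPKM in untreated and LPS-treated macrophages and at 0.281 and 5.52 FPKM in osteoclasts, likewise given without a test. Prdm1, a repressor known to lower Irf8 during osteoclast formation, was at 2.11 FPKM in untreated macrophages and 19.5 FPKM in untreated osteoclasts (log2 difference 2.72, adjusted p 8.66e-13). LPS brought it to 20.6 FPKM in macrophages (adjusted p 9.55e-13), where Irf8 rose as well, and it was at 20.1 FPKM in LPS-treated osteoclasts. These lists were chosen with earlier results of these libraries known and are no independent evidence of a direction.

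**Figure D5:**
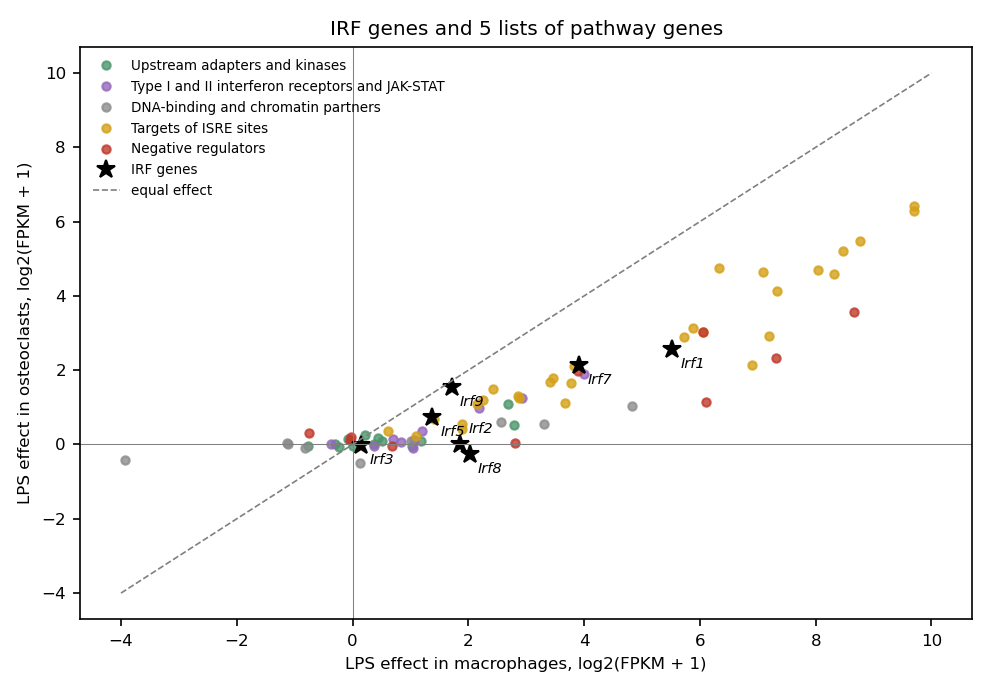
LPS effect in macrophages (x axis) against that in osteoclasts (y axis), both as log2(FPKM + 1) differences, for the 7 tested IRF genes (stars) and the tested genes of the 5 lists (points); the dashed line marks an equal effect. Irf9, at 1.71 and 1.54, lies nearest to the line among the 6 IRF genes raised in macrophages, and Irf2 (0.02) and Irf8 (-0.26) lie near or below 0 on the y axis.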

How the data were processed

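RNA-seq values of 12 mouse libraries were used. The kit was NEBNext Ultra RNA, per the labels' protocols. The submitters' processing notes name fastp, STAR, featureCounts, DESeq2 and the build mm10, with no role or order. The authors deposited FPKM values, whose denominators equalled a median-of-ratios size factor times 1 shared read total, as inferred from the values. Changes are therefore measured against the typical gene. Whole reads, within a tolerance of 0.02, were recovered for 96.7% of the 25854 genes above 0 at the exon length of GENCODE M21 (GRCm38), which also gave the gene positions, and for 99.6% when, for genes where that length gave none, the smallest length that gave whole reads was used.

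The 11335 genes that reached 1 FPKM in 3 or more libraries were tested with limma 3.58.1 in R 4.3.3 on log2(FPKM + 1), with a variance trend, fitting the 4 group means to the 12 libraries together. The log2 differences understate the change of low genes. Tests were two-sided, with Benjamini-Hochberg adjustment over all genes tested and a threshold of 0.05. The steps were tested on simulated data. The alternatives tried were no filter, a minimum mean of 5 FPKM, a pseudocount of 0.1, rescaling to TPM, quantile normalization, only the groups compared, a replicate block, no variance trend, voom on recovered reads and each library left out. Named were the 8 members, genes of the 5 pathway lists and, for each tested member, the 3 most correlated genes. Sting1 is listed under an older symbol. Promoters are from RefSeq (GRCm38.p6), with 11 windows for the 8 members. Members and lists were chosen with earlier results of these data known. The chi-square per degree of freedom between replicates was 2.69 to 13.6, above sampling noise, so none was counted as a duplicate. The 3 pairs of LPS-treated osteoclasts (8.62 to 13.6) lay above every pair of the other groups (at most 6.8).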

Additional observations from a re-analysis of the deposited data

Results flagged for a closer look

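For 5 members, macrophages and osteoclasts differed in the LPS effect by the interaction in limma on log2(FPKM + 1), taken as the effect in osteoclasts minus that in macrophages. It was -2.95 for Irf1, -2.29 for Irf8, -1.84 for Irf2, -1.78 for Irf7 and -0.63 for Irf5. Irf1 and Irf7 rose with LPS in both cell types and less in osteoclasts. Irf5 rose in both as well, but its interaction was -0.04 (adjusted p 0.622) after rescaling to TPM and 0.12 (adjusted p 0.113) after quantile normalization. Irf2 and Irf8 rose in macrophages and were not called in osteoclasts. On the recovered reads the interactions were -2.73 for Irf1, -2.63 for Irf8, -2.10 for Irf2, -1.24 for Irf7 and -0.60 for Irf5, each called there too. The groups held 3 libraries, so no single library was tested as standing apart.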

How the results depend on the processing

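The number of members called stayed within 1 of the reported count in every fit that left out a library, at 6 for the LPS effect in macrophages, 4 to 5 in osteoclasts, 6 to 7 for the cell types without LPS, 6 with LPS and 5 to 6 for the interaction. Of 735 member differences recomputed under an alternative, 705 kept their sign and their side of the threshold and 15 changed sign. In 11 of the 15 neither value was called, and 5 of these 11 came from leaving out a library. The other 4 came from a rescaling. Of 70 recomputed differences of a gene pair's log2 ratio, 7 moved by more than the replicate SD, each with 1 FPKM added (Irf8 to Irf4 between untreated cell types, from -1.83 to -3.24, the most). Of 124 recomputed shares of the summed level, 10 did, all in macrophages after quantile normalization. After rescaling to TPM, Irf3 was at -0.46 for the LPS effect in macrophages and 0.38 for the interaction, and Irf9 at 0.59 for the interaction. After quantile normalization, the Irf5 interaction was 0.12. Rescaling to TPM, with 13950 genes tested at 1 TPM, moved the median of all genes by -0.55 in macrophages, -0.06 in osteoclasts, -0.37 between untreated cell types, 0.11 between LPS-treated ones and 0.50 in the interaction, so that scaling and gene set changed together. Quantile normalization moved the first by -0.16 and the comparison of LPS-treated cells by 0.11. Genes called higher made up 52.6%, 62.8%, 49.9% and 47.0% of the calls in the first 3 of these comparisons and the interaction on the deposited scale, 18.2%, 44.8%, 29.4% and 82.0% as TPM, and 37.0%, 38.5%, 51.5% and 59.9% after quantile normalization. At a mean of at least 5 FPKM fewer genes (6430) were tested, so that 4851, 5427, 5694 and 4018 genes were called for macrophages, the 2 cell type comparisons and the interaction.

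Same-numbered libraries deviated together weakly or not at all. Their deviations from the group means had correlations between -0.07 and 0.104 over 18 pairs, and the best match in another group had the same number in 14 of 36 cases. Between untreated and LPS-treated libraries of 1 cell type, same numbers gave 0.104, 0.097 and -0.053 in macrophages and 0.072, 0.083 and 0.029 in osteoclasts. Different numbers gave -0.137 to 0.048 there. The labels do not say what a shared number means. With the replicate number as a block, 6, 4, 6, 6 and 5 members were called, as without it, and no member's call changed. Depth limits Irf4, with 0 to 39 reads per library, and in osteoclasts Irf7 without LPS (231 reads in all) and Irf8 with LPS (286).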
